A study of Mus musculus with 22 samples.

Results

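Vmp1 is the mouse gene whose last exon holds the microRNA-21 gene, and it is described here together with 8 genes of the core autophagy machinery: Tmem41b, Becn1, Map1lc3b, Sqstm1, Atg5, Atg7, Ulk1 and Tfeb. These 9 genes were chosen by name, and all 9 were found among the 53342 genes of the deposited tables of read counts. The 22 RNA sequencing libraries came from mice of the Bl6 background with pancreatic cancer. They comprise 8 whole tumors without microRNA-21 (KO tumors), 4 whole tumors with it (WT tumors), 5 cancer cell lines without it (KO lines) and 5 cancer cell lines with it (WT lines). Per the labels, no animal or line was treated. The animals' age, the driver of recombination and the extent of the deletion around the microRNA gene are not given in the sources used here. Each line was grown from 1 dissociated tumor, and all lines, WT included, carried recombined K-Ras and p53 alleles with loss of heterozygosity. By their titles, all 22 libraries came from animals named KPC, in tumors and lines and in KO and WT alike. WT here therefore refers to microRNA-21 only. By the same titles, 5 animals gave both a tumor and a line.

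Autophagy wraps cytoplasm in a double membrane and delivers it to the lysosome. The ULK1 kinase starts the process, a lipid kinase complex built on Beclin 1 marks the membrane, and ATG9 vesicles, ATG2 and the scramblases VMP1 and TMEM41B supply it with lipid. A pair of ubiquitin-like systems run by ATG7 and ATG5 then attaches LC3 to the membrane, receptors such as p62 (Sqstm1) bring in cargo, and TFEB switches on lysosomal and autophagy genes. In the rat pancreas VMP1 was first described as a vacuole membrane protein of acinar cells in acute pancreatitis, and pancreatic cancers driven by K-Ras are known for their use of autophagy. The comparison of KO with WT asks whether the host gene differed once the microRNA gene was gone, and whether the other autophagy genes differed with it.

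The sequences that tie Vmp1 to the deletion are shown first. Vmp1 (ENSMUSG00000018171.9, build mm10, chromosome 11, 86583865 to 86683836, minus strand) has 12 exons in its longest annotated coding transcript. Mir21a (ENSMUSG00000065455.1, chromosome 11, 86584067 to 86584158, minus strand, 92 bases) lies in exon 12, within the 3′ UTR, 1149 bases after the stop codon and 202 bases before the transcript's end. Its pair of mature products, from RefSeq on GRCm38.p6, is given 5′ to 3′ with the seed, bases 2 to 8, in capitals.
mmu-miR-21a-5p: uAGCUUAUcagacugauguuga
mmu-miR-21a-3p: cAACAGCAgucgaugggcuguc

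Mir21a itself had 0 counts in all 22 libraries, WT included. In the smallest library 0 counts leave room for 0.122 CPM (the counts-per-million unit; 3 counts), by counting error only. Reads in this stretch fall in Vmp1 too, and how the authors assigned them is not given, so these libraries check no genotype label through Mir21a. Matches to the 5p seed were looked for in the longest annotated 3′ UTR of each of the 9 genes. The letters searched on the transcribed strand were ATAAGCT, which pairs with the whole seed, and TAAGCTA, which pairs with all but its last base. One UTR held a match, that of Map1lc3b, where the letters TAAGCTA stand between bases 1970 and 1976 of 2002 and are shown in capitals.
Map1lc3b: gagttccaggcTAAGCTAtggtaccggac

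The other 8 UTRs, 605 to 2861 bases long, held none of these letters. Among 15053 protein-coding genes tested in any comparison, 8.19% held ATAAGCT and 12.8% held either form. Map1lc3b is therefore the member that carries a short seed match, and its KO values are given with the others below.

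The start of Vmp1 lies 148 bases from that of Ptrh2, which encodes a mitochondrial peptidyl-tRNA hydrolase and is read in the opposite direction. The window of chr11:86683787-86684086, minus strand, from 250 bases before to 50 bases after the outermost Vmp1 start (RefSeq, GRCm38.p6), therefore holds both starts, with that of Ptrh2 at its base 102. It is shown because the host gene and its neighbour share this stretch and are compared below.
Vmp1 promoter: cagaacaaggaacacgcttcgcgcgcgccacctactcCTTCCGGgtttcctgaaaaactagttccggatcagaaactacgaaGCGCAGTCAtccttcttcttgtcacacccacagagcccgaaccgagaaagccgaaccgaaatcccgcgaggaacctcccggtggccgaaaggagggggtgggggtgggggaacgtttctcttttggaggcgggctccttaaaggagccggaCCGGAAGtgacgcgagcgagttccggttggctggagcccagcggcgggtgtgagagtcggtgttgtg

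Capitals mark matches on either strand to CTTCCGG (the ETS core, 2 matches) and to TGACNNNGC (the core of the antioxidant response element, 1 match). CTTCCGG was found in 8.86% and TGACNNNGC in 12.4% of 32851 promoter windows of this length. The E-box CACGTG, the centre of the CLEAR element that TFEB binds, was not among the letters of the Vmp1 window, and it was found in 7.15% of all windows. Among the 8 members with a window, those of Atg5 and Atg7 held CACGTG. The Atg7 window (chromosome 6, 114670846 to 114671145) lies inside the gene, whose annotated start is at 114643097. Its match is therefore not at that start. The longer core TCACGTGA, which contains CACGTG, and the AP-1 core TGANTCA were found in no member's window, against 0.974% and 7.81% of all windows.

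Levels below are CPM scaled by the library total and its TMM factor. Library totals were 24547650 to 30106745 counts in KO tumors, 27332257 to 29987227 in WT tumors, 24796473 to 31118113 in KO lines and 25468350 to 28888902 in WT lines. The lines expressed all 10 ductal epithelial markers, with summed levels of 9070 to 12400 CPM in KO and 7610 to 15100 CPM in WT lines, and their 9 T and B cell markers summed to at most 0.312 CPM. In tumors the 15 acinar markers summed to 30.4 to 3080 CPM (KO) and 17.1 to 608 CPM (WT) and were highest in KO tumors 4 and 8 and, among WT, in tumor 4. The ductal epithelial markers summed to 4270 to 8900 CPM in KO and 7050 to 14800 CPM in WT tumors, and WT tumor 3 stood apart with 1400 CPM of skeletal muscle markers. In whole tumors, fewer cells of a type and less RNA per cell cannot be told apart.

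Per kilobase of exon, Sqstm1 and Vmp1 led the 9 genes by a wide margin in every group. The length used was the union of all annotated exons, which can exceed the length of 1 transcript. It was 3862 bases for Vmp1 and 3356 for Sqstm1, but 7517 for Map1lc3b and 7065 for Becn1. The size of the margin therefore depends on the annotation. Vmp1 stood at 143 ± 27.2 CPM per kb in KO tumors, 112 ± 22.5 in WT tumors, 101 ± 12.5 in KO lines and 64.4 ± 4.49 in WT lines (SD; n = 8, 4, 5 and 5). Sqstm1 stood at 72.4 ± 16 CPM per kb in KO tumors, 99.9 ± 31.4 in WT tumors, 127 ± 16.7 in KO lines and 149 ± 38.6 in WT lines. Their order depended on the material. Vmp1 was above Sqstm1 in 8 of 8 KO tumors and 2 of 4 WT tumors, and Sqstm1 was above Vmp1 in 5 of 5 KO lines and 5 of 5 WT lines. The other 7 genes kept nearly one order, with Map1lc3b, Becn1 and Atg5 between 14.3 and 19.1 CPM per kb on average, Ulk1 between 8.26 and 9.89, Atg7 between 4.38 and 5.47, Tmem41b between 3.51 and 4.46 and Tfeb between 2.32 and 3.19. Within the trio of Map1lc3b, Becn1 and Atg5, the ranges of neighbours overlapped in all 4 groups, and in tumors the same held for Atg7, Tmem41b and Tfeb.

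**Figure D1:**
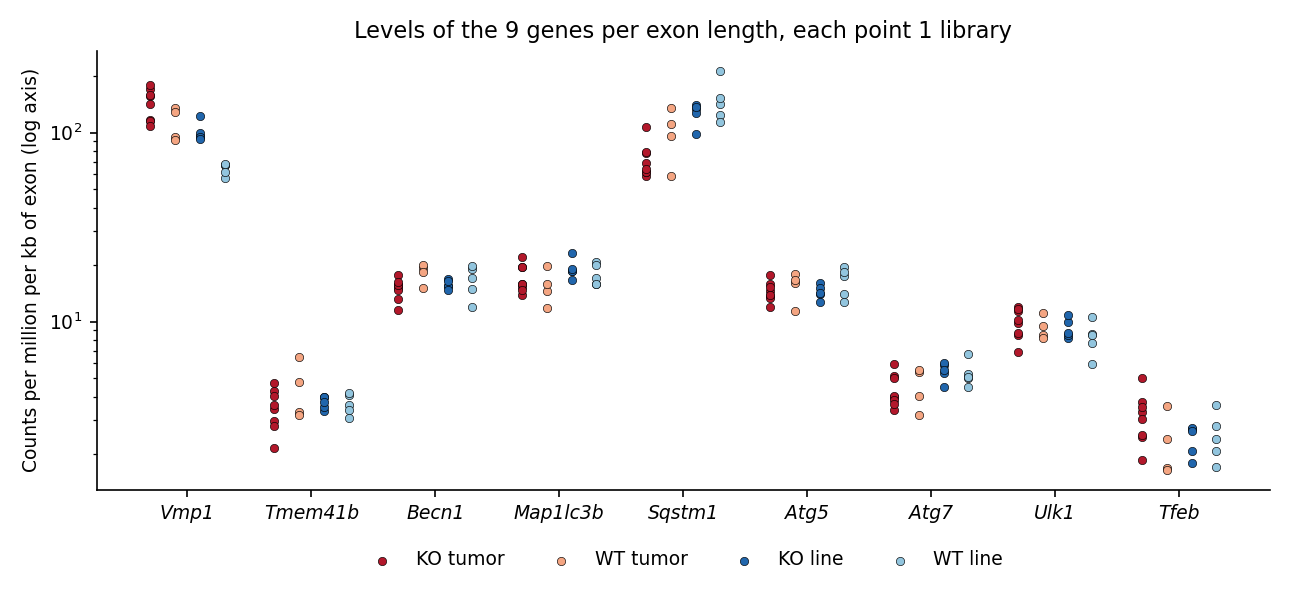
Counts-per-million values per kilobase of exon (log axis) for the 9 genes, with each point 1 library, in KO tumors, WT tumors, KO lines and WT lines. Vmp1 and Sqstm1 stand above the others, and Vmp1 averages 143 in KO tumors and 64.4 in WT lines.

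In KO lines Vmp1 was at 368, 384, 475, 368 and 358 CPM, against 261, 259.7, 223, 238 and 262 CPM in WT lines. Every KO line stood above every WT line, and KO line 3 was the highest. The means were 391 ± 48.1 CPM in KO lines and 249 ± 17.3 CPM in WT lines (n = 5 each, ± SD). This was 1.57-fold, with a log2 fold change of 0.65 ± 0.11 (SE). By edgeR's quasi-likelihood test across 14020 genes the adjusted p was 0.299, so the difference did not pass the threshold of 0.05, although its unadjusted p of 0.000107 ranked 5 among all genes. Only 2 genes (0.0143%) passed in this comparison. Every KO line above every WT line was shown by 104 genes, or 0.742% of those tested, and every KO line below every WT line by 73 genes (0.521%). For Vmp1 alone, the exact permutation test over the 252 relabellings of the lines gave a two-sided p of 0.00794, the smallest it can give. DESeq2, on the same counts, called Vmp1 in lines, with a log2 fold change of 0.65 and an adjusted p of 0.000104, where it called 46 genes in all. Over the alternatives tried the log2 fold change of Vmp1 ran from 0.59 to 0.69, and its adjusted p from 0.000104 to 0.892. The Vmp1 count is for the whole gene, and exon 12 holds the deleted microRNA gene. How reads there were assigned is not given, and the part of this exon in the difference was not tested. Of the 3915 stretches of read length (75 bases) in Vmp1 transcripts, 21 also occur in Gm1969 or Mir21a.

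In KO tumors Vmp1 ranged from 417 to 689 CPM with a median of 575 CPM, against 517, 365, 498 and 351 CPM in WT tumors. The groups overlapped, with 5 of 8 KO tumors above the highest WT tumor. The means were 553 ± 105 CPM in KO (n = 8) and 433 ± 87 CPM in WT tumors (SD, n = 4). The log2 fold change was 0.32 ± 0.19 with an adjusted p of 0.403 by edgeR over 18125 genes, where 2 genes (0.011%) passed, and the exact permutation test gave a two-sided p of 0.0768. With the mean of the acinar markers as a covariate the log2 fold change was 0.51 (adjusted p = 0.243), and without KO tumors 4 and 8 and WT tumor 4 it was 0.34 (adjusted p = 0.548). Over its alternatives the adjusted p ran from 0.243 to 0.652. The KO effect in tumors minus that in lines was -0.30 ± 0.21 (adjusted p = 0.738), so no difference between the materials was shown, and 0 of 18662 genes (0%) passed that test by edgeR. At an unadjusted p under 0.05 the interaction counted 1540 genes (8.25%), and DESeq2 called 67.

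Ptrh2, which starts head to head with Vmp1, did not show the same values. In KO lines it was at 38.7, 41.4, 33.2, 27.3 and 35.2 CPM, against 40.8, 39.9, 30.8, 39.3 and 42.2 CPM in WT lines. These groups overlapped, and the log2 fold change was -0.13 ± 0.14 (edgeR adjusted p = 0.837). In KO tumors Ptrh2 averaged 22 ± 4.25 CPM and in WT tumors 28.9 ± 6.84 CPM, a log2 fold change of -0.43 ± 0.18 (unadjusted p = 0.0368 and adjusted p = 0.269 by edgeR). Tubd1, a tubulin gene whose end lies 16504 bases past that of Vmp1, had log2 fold changes of -0.24 in KO lines and -0.14 in KO tumors, with adjusted p of 0.854 and 0.824. Gm11478, a pseudogene inside an intron of Vmp1 on the same strand, had counts equal to 2.32% of those of Vmp1 and log2 fold changes of 0.15 in KO lines (adjusted p = 0.881) and -0.44 in KO tumors (adjusted p = 0.383).

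**Figure D2:**
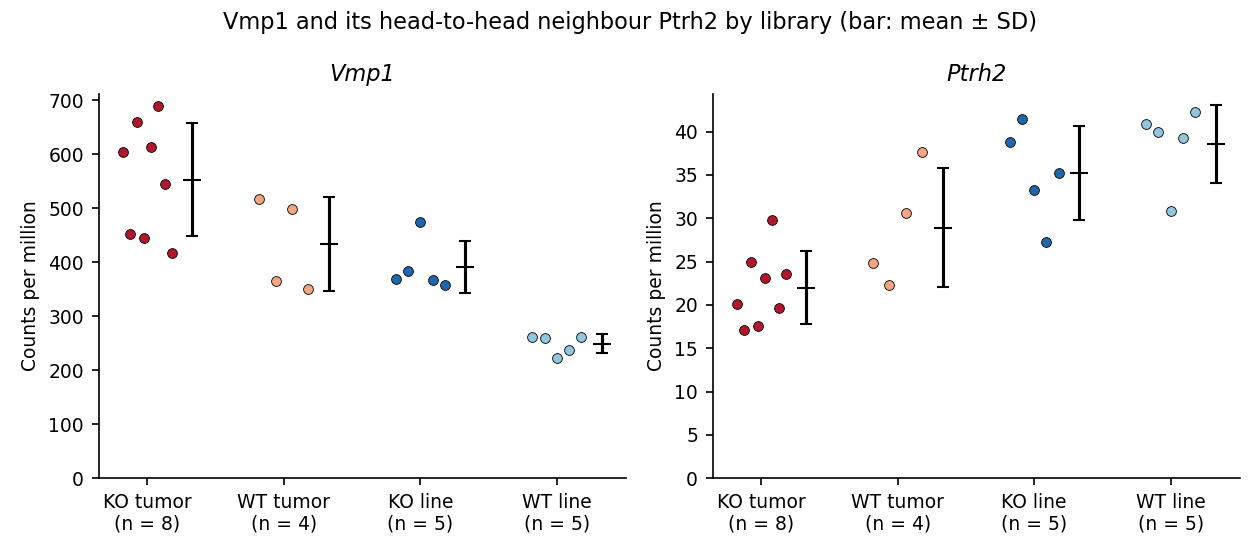
Counts-per-million values of Vmp1 (left) and Ptrh2 (right) in each library of the KO tumors, WT tumors, KO lines and WT lines, with the mean and SD beside the points. All 5 KO lines exceed all 5 WT lines for Vmp1, and the groups overlap for Ptrh2.

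None of the other 8 autophagy genes passed edgeR's test in KO lines or in KO tumors, where 0.0143% and 0.011% of all genes passed. Their log2 fold changes ran from -0.22 (Sqstm1) to 0.16 (Ulk1) in lines, with adjusted p of 0.767 to 0.978, and from -0.49 (Sqstm1) to 0.44 (Tfeb) in tumors, with adjusted p of 0.248 to 0.883 (edgeR). In lines none had an unadjusted p under 0.05, as 6.99% of all genes did, and in tumors Becn1 and Sqstm1 did, where the share of all genes was 16.7%. In neither material did the KO and WT libraries of any of these 8 genes separate. In tumors every KO library above every WT library was shown by 1.12% of genes and the opposite by 0.789%.

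Among the initiation and nucleation genes, Ulk1 (ENSMUSG00000029512.11, chromosome 5, 110784488 to 110810097), the kinase that starts autophagy, was at 52.9, 54.8, 64.2, 56.7 and 70.4 CPM in KO lines, against 55.9, 54.9, 68.7, 38.5 and 49.9 CPM in WT lines. The groups overlapped (log2 fold change 0.16 ± 0.16). In KO tumors Ulk1 ranged from 44.8 to 77.5 CPM and in WT tumors from 53.4 to 71.8 CPM. Becn1 (ENSMUSG00000035086.13, chromosome 11, 101285952 to 101302286), which encodes Beclin 1, the scaffold of the lipid kinase complex, averaged 111 ± 6.34 CPM in KO lines and 116 ± 22.1 CPM in WT lines. In KO tumors Becn1 ranged from 81.8 to 125 CPM with a median of 108 CPM, against 135, 106, 140.1 and 129 CPM in WT tumors. Of the 4 WT tumors 3 stood above the highest KO tumor. The log2 fold change was -0.31 ± 0.13, with an unadjusted p of 0.0292 and an adjusted p of 0.248 by edgeR, and the exact permutation test gave a two-sided p of 0.0424. Becn1 shares 2615 of its 7788 stretches of read length with Cntd1 on the opposite strand, whose counts equal 0.569% of its own.

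Tmem41b (ENSMUSG00000047554.14, chromosome 7, 109972187 to 109986929), the scramblase that works beside VMP1 in the endoplasmic reticulum, was at 19.7, 23.3, 20.7, 23.4 and 21.9 CPM in KO lines, against 23.9, 21.3, 24.5, 20.04 and 18.2 CPM in WT lines, and the groups overlapped (log2 fold change 0.02 ± 0.13). In KO tumors it ranged from 12.6 to 27.7 CPM with a median of 20.7 CPM, against 38.1, 19.4, 18.9 and 28.3 CPM in WT tumors. The 2 tumors above all KO tumors were WT tumors 1 and 4, and the difference, -0.38 ± 0.24 on the log2 scale, did not pass (edgeR adjusted p = 0.446). Of the 6134 stretches of read length (75 bases) in Tmem41b transcripts 511 also occur in Gm6223, so its counts are uncertain to that extent.

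In the conjugation machinery, Atg7 (ENSMUSG00000030314.16, chromosome 6, 114643097 to 114860614), the E1-like enzyme, and Atg5 (ENSMUSG00000038160.7, chromosome 10, 44268358 to 44364291), part of the E3-like complex, did not pass in either material. Atg7 averaged 38.1 ± 4.29 CPM in KO lines and 37.2 ± 5.89 CPM in WT lines, and 30.5 ± 6.11 CPM in KO tumors and 31.7 ± 7.89 CPM in WT tumors, with log2 fold changes of 0.04 in lines and -0.09 in tumors. Atg5 averaged 33.8 ± 2.83 CPM in KO lines and 38.5 ± 6.78 CPM in WT lines, and 34 ± 4.01 CPM in KO tumors and 36.3 ± 6.59 CPM in WT tumors, with log2 fold changes of -0.19 and -0.13. Map1lc3b (ENSMUSG00000031812.16, chromosome 8, 121590361 to 121598760), whose product LC3B is attached to the membrane, averaged 144 ± 17.4 CPM in KO lines and 134 ± 17.5 CPM in WT lines, and 128 ± 21.4 CPM in KO tumors and 116 ± 24.6 CPM in WT tumors. Its log2 fold changes were 0.10 ± 0.13 and 0.11 ± 0.17. Exons of Map1lc3b overlap those of Zcchc14 on the opposite strand, which has counts equal to 100% of those of Map1lc3b. The strand setting of the counting is not given. Of the 7660 stretches of read length in Map1lc3b transcripts 313 also occur in transcripts of other genes. Zcchc14 had log2 fold changes of -0.02 in KO lines and -0.03 in KO tumors.

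Sqstm1 (ENSMUSG00000015837.15, chromosome 11, 50199366 to 50210827), which encodes the cargo receptor p62, was at 331, 447, 472, 427 and 457 CPM in KO lines, against 476, 512, 415, 381 and 713 CPM in WT lines. The groups overlapped, with WT line 5 the highest of all. In KO tumors Sqstm1 ranged from 197 to 360.5 CPM with a median of 223 CPM, against 450.0, 198, 322 and 371 CPM in WT tumors. Here 2 of the 4 WT tumors exceeded every KO tumor, and WT tumor 2 lay among the lowest KO tumors. The log2 fold change was -0.49 ± 0.23, with an unadjusted p of 0.0486 and an adjusted p of 0.296 by edgeR, and the exact permutation p was 0.0909 (two-sided). Beside it, the summed ductal epithelial markers were 4270 to 8900 CPM in KO and 7050 to 14800 CPM in WT tumors, and their part in the result was not tested. With the acinar covariate the log2 fold change of Sqstm1 was -0.35 (adjusted p = 0.484), and the adjusted p ran from 0.12 to 0.632 over its alternatives. Of its 3489 stretches of read length 509 also occur in Mrnip, which overlaps it on the opposite strand and has counts equal to 0.858% of its own.

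Tfeb (ENSMUSG00000023990.18, chromosome 17, 47737030 to 47792419), the transcription factor of the lysosomal programme, had the lowest level of the 9 genes per kilobase. It averaged 13.5 ± 2.49 CPM in KO lines and 14.3 ± 4.23 CPM in WT lines. In KO tumors it ranged from 10.5 to 28.5 CPM with a median of 18.1 CPM, against 9.52, 20.2, 13.5 and 9.32 CPM in WT tumors. The log2 fold change in tumors was 0.44 ± 0.27 (edgeR adjusted p = 0.442), and without KO tumors 4 and 8 and WT tumor 4 it was 0.17.

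**Figure D3:**
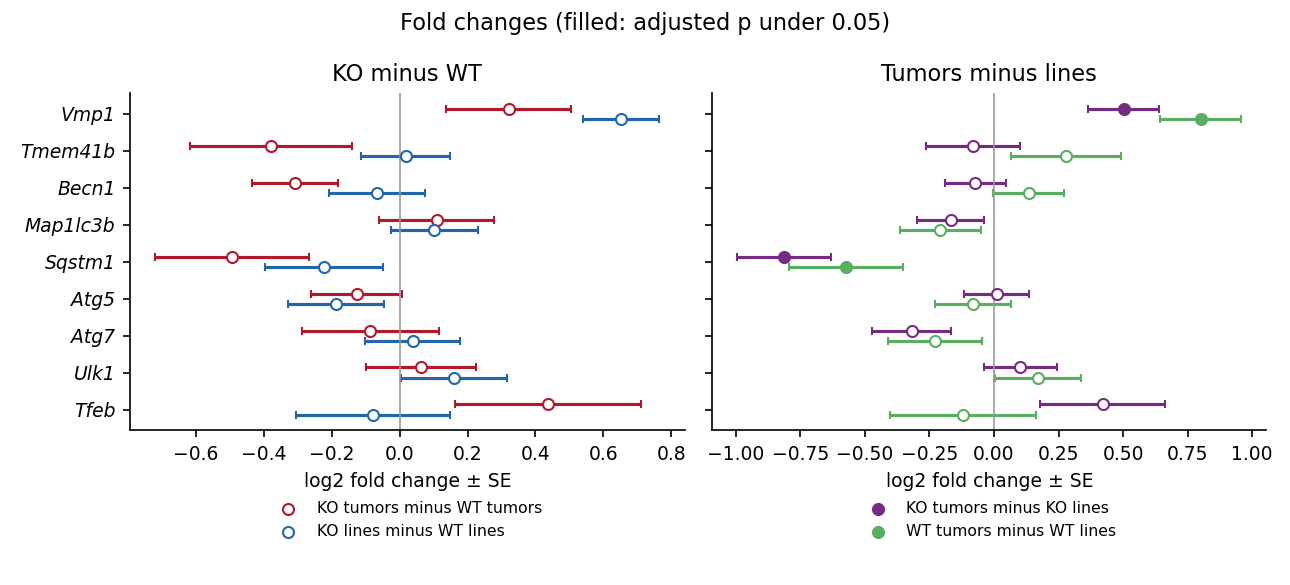
Log2 fold changes with their standard errors of the 9 genes, KO against WT on the left (tumors and lines) and tumors against lines on the right (KO and WT). Filled points passed an adjusted p of 0.05, which only Vmp1 and Sqstm1 did, and only between tumors and lines.

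Whether the other genes varied with Vmp1 from library to library was tested on log2(CPM + 1) after subtracting each genotype's mean, so that the KO difference itself could not make a correlation. None of the 16 relations passed after Benjamini-Hochberg adjustment. The strongest was that of Tfeb, which was negative in both materials. In the 12 tumors Pearson's r was -0.67 and Spearman's rho -0.629 (permutation p of 0.0288 and 0.0392, adjusted p of 0.38 and 0.628). In the 10 lines they were -0.599 and -0.552 (permutation p of 0.0475 and 0.122, adjusted p of 0.38 and 0.752). The 2 libraries farthest from the median of Vmp1 were found on the same values, with the genotype mean subtracted. They were KO tumors 4 and 8 in tumors, and KO line 3 and WT line 5 in lines. Without them r of Tfeb was -0.551 in tumors and -0.645 in lines (permutation p of 0.138 and 0.228, adjusted p of 0.695 in both). Sqstm1 had an r of 0.0204 in tumors and 0.504 in lines (rho of -0.00699 and 0.503, adjusted p of 0.984 and 0.42). Becn1 had an r of 0.429 in tumors and 0.247 in lines (rho of 0.427 and 0.236, adjusted p of 0.602 and 0.734), and without those 2 libraries r was 0.749 and 0.711 (adjusted p of 0.227 and 0.695). Tmem41b had opposite signs, with an r of 0.414 in tumors and -0.319 in lines (rho of 0.336 and -0.43, adjusted p of 0.602 and 0.715).

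**Figure D4:**
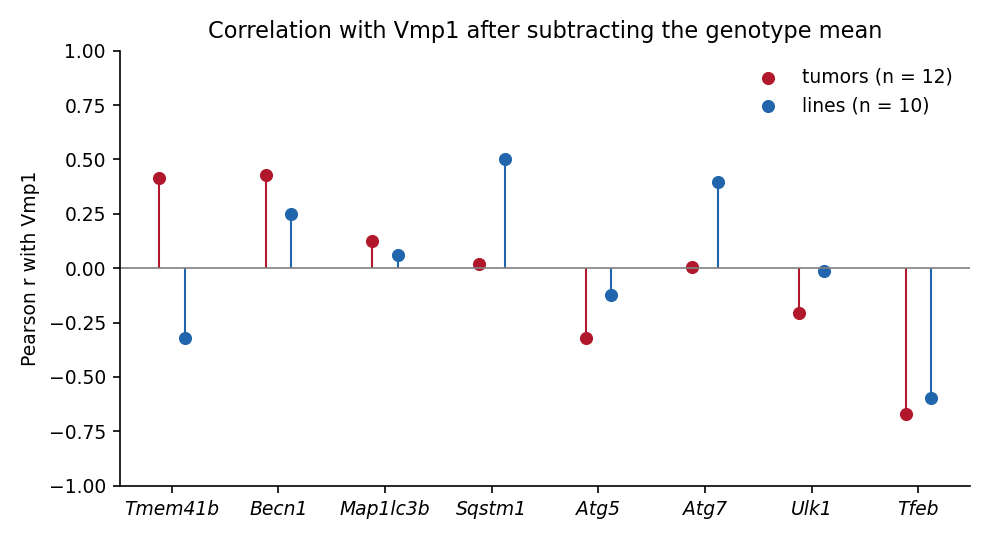
Pearson's r of each of the other 8 genes with Vmp1 over the 12 tumors and the 10 lines, on log2(CPM + 1) with the genotype mean subtracted. Tfeb lies lowest in both, at -0.67 and -0.599.

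With the genotype difference left in, the genes closest to Vmp1 were picked from all genes. They were ranked by Pearson's r of log2(CPM + 1) among genes with a mean of at least 10 CPM, and the values, which share libraries and scaling, are descriptions without a test. Over the 12 tumors and 10542 genes the closest were Ssx2ip (r = 0.842), Glce (0.822), 1110008P14Rik (0.818), Pcbp3 (0.816) and Gjc1 (0.801). Over the 10 lines and 9500 genes the closest were Mindy2 (r = 0.947), which encodes a deubiquitinase, Map7d1 (0.926), Gnb1 (0.922), Esyt2 (0.914), which encodes a tether and lipid transfer protein of the endoplasmic reticulum, and Cdip1 (0.908). By edgeR Cdip1 was also 1 of the 2 genes called in KO against WT lines (log2 fold change 1.21, adjusted p = 0.0282). These genes were picked for the highest r, so setting the autophagy genes against them shows nothing about the autophagy genes. Of the other 8 genes Map1lc3b had the highest r in tumors, 0.254, above 79.7% of genes. Ulk1 had the highest in lines, 0.339, also above 79.7% of genes. Each is the highest of 8 and was not tested.

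The wider autophagy and lysosome pathway was read from 11 lists of 106 genes, 97 of them outside the 9. No gene of these lists passed edgeR's test in KO lines or in KO tumors, where 0.0143% and 0.011% of all genes passed. With so few calls over all genes, the absence of calls in these lists says little. DESeq2 called Vmp1 in lines (adjusted p = 0.000104), and its results for the 97 genes outside the 9 were not read. Of the 104 list genes tested in lines, 53 had positive and 51 negative log2 fold changes, with a median of 0.002 against -0.03 over all genes, and at an unadjusted p under 0.05 there were 6 positive and 2 negative, where 6.99% of all genes were at that level. Of the 106 tested in tumors, 48 were positive and 58 negative, with a median of -0.04 against 0.01 over all genes, and 4 positive and 6 negative at that level, where the share of all genes was 16.7%. Vmp1 was the only list gene whose KO lines all stood above the WT lines, which 0.742% of all genes did. In tumors Atg4c was the only one to do so, against 1.12% of all genes, so that both counts are near the background.

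In the ULK1 initiation complex (5 genes) the median log2 fold change was 0.006 in KO tumors and -0.11 in KO lines. Atg101, a subunit of the complex, had the smallest p of the list in tumors, with 30.7 ± 4.6 CPM in KO tumors and 46.4 ± 11 CPM in WT tumors (log2 fold change -0.63 ± 0.17, edgeR adjusted p = 0.145). In the Beclin 1 complexes (8 genes) the medians were -0.03 in tumors and 0.05 in lines. Atg14, the subunit that directs the kinase to autophagy, had a log2 fold change of -0.30 in KO tumors (adjusted p = 0.269) and 0.22 in KO lines (adjusted p = 0.721). In the list of membrane source and lipid transfer (12 genes, Vmp1 and Tmem41b among them) the median was -0.18 in tumors, with 9 of 12 values negative. In lines it was -0.01, with 7 of 12 negative. Over all genes the medians were 0.01 in tumors and -0.03 in lines. The lipid transfer gene Atg2b had a log2 fold change of -0.37 in tumors (adjusted p = 0.206), and Wdr45, which encodes a reader of the lipid mark, 0.49 in lines (adjusted p = 0.713).

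A list of 4 genes held Vmp1, Tmem41b and their relatives Tmem41a and Tmem64, which share their membrane domain. Tmem64 was at 37.7 CPM in KO tumors and 19.6 CPM in WT tumors (log2 fold change 0.92 ± 0.31, edgeR adjusted p = 0.191). In lines Tmem64 was at 21.9 CPM in KO against 26.1 CPM in WT (log2 fold change -0.25, adjusted p = 0.844). Tmem41a had log2 fold changes of 0.43 in KO tumors and 0.11 in KO lines, with adjusted p of 0.413 and 0.915. The list's medians, which include Vmp1 and Tmem41b themselves, were 0.37 in tumors and 0.06 in lines.

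The conjugation list (11 genes) had medians of 0.03 in tumors and -0.08 in lines. The protease gene Atg4c was at 13.7 CPM in KO tumors and 9.04 CPM in WT tumors (log2 fold change 0.58, adjusted p = 0.189), and Atg3, the E2-like enzyme, had 0.47 (adjusted p = 0.257). The LC3 and GABARAP list (5 genes) had medians of 0.11 in tumors and 0.10 in lines, where Map1lc3a was at 30.9 CPM in KO lines and 21 CPM in WT lines (log2 fold change 0.56, adjusted p = 0.713). The receptors (11 genes, Sqstm1 among them) had 10 of 11 negative values in tumors, with a median of -0.24 against 0.01 over all genes. In lines 6 of 11 were negative, with a median of -0.03, the same as over all genes. In tumors Sqstm1 was the 1 receptor with an unadjusted p under 0.05 by edgeR, where 16.7% of all genes were at that level. Nbr1, a receptor related to p62, was at 141 CPM in KO tumors and 167 CPM in WT tumors (log2 fold change -0.28, adjusted p = 0.365). The fusion list (12 genes) had medians of -0.07 in tumors and -0.01 in lines.

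Downstream of TFEB, 23 lysosomal target genes had a median log2 fold change of 0.03 in KO tumors, with 14 positive and 9 negative, and 0.21 in KO lines, with the same split. In lines Atp6v1h, a subunit of the lysosomal proton pump, had the smallest p of the list and was at 58.2 CPM in KO against 81.4 CPM in WT (log2 fold change -0.48, adjusted p = 0.713). The protease gene Ctsd was at 291 CPM in KO against 203 CPM in WT (log2 fold change 0.52, adjusted p = 0.713), and Glb1, the lysosomal beta-galactosidase, at 86.7 CPM in KO against 61.4 CPM in WT (0.50, adjusted p = 0.713). In tumors Cln3, a lysosomal membrane protein, was at 42.3 CPM in KO against 59.5 CPM in WT (-0.52, adjusted p = 0.168). The 4 MiT/TFE factors had a median of 0.30 in tumors, where Mitf was at 10.6 CPM in KO against 5.62 CPM in WT (0.88, adjusted p = 0.396). In lines 2 of them could be tested, with a median of 0.04. The 13 genes of the mTORC1 and AMPK arm, which restrain and trigger ULK1, had medians of -0.05 in tumors and -0.02 in lines. In both, edgeR called 0 of them, against 0.011% of all genes in tumors and 0.0143% in lines.

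Between tumors and lines the picture was different, since Vmp1 rose and Sqstm1 fell with both genotypes, while the other 7 genes did not pass. Here 10654 of 18662 genes (57.1%) passed for KO tumors against KO lines and 8678 (46.5%) for WT tumors against WT lines, so that 2 of 9 is below the share of all genes. Vmp1 averaged 553 ± 105 CPM in KO tumors and 391 ± 48.1 CPM in KO lines, a log2 fold change of 0.50 ± 0.14 (edgeR adjusted p = 0.00408). It averaged 433 ± 87 CPM in WT tumors and 249 ± 17.3 CPM in WT lines, with a log2 fold change of 0.80 ± 0.16 (adjusted p = 0.000441). All genes together had median log2 fold changes of 0.17 (KO) and 0.13 (WT) in these comparisons, which RLE scaling moved to 0.28 and 0.21.

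Sqstm1 averaged 243 ± 53.7 CPM in KO tumors and 427 ± 56.1 CPM in KO lines, a log2 fold change of -0.81 ± 0.18 (edgeR adjusted p = 0.000882). It averaged 335 ± 105 CPM in WT tumors and 499 ± 130 CPM in WT lines, with a log2 fold change of -0.57 ± 0.22 (adjusted p = 0.0378). The WT call rests on single libraries. It was lost without WT line 2 (adjusted p = 0.0594), WT line 5 (0.124), WT tumor 2 (0.145) or WT tumor 3 (0.0746), and with RLE scaling (0.0716), within a range of 0.0145 to 0.145 over its alternatives. Fibroblast markers, 10 genes, summed to 1980 to 12800 CPM in KO tumors and 3.25 to 7.52 CPM in KO lines, and macrophage markers, also 10, to 717 to 3660 CPM in KO tumors and at most 121 CPM in KO lines. In WT these sums were 3000 to 8070 CPM in tumors and 2.27 to 16.9 CPM in lines for fibroblasts, and 1160 to 2320 CPM in tumors and at most 162 CPM in lines for macrophages. In the lines of both genotypes the fibroblast genes Dcn and Lum and the macrophage genes Adgre1, C1qa, C1qb, C1qc, Lyz2 and Cd163 were at 0 counts. Of the 10 markers in each of these lists, 2 averaged at least 1 CPM in KO lines and 2 in WT lines. The part of these cells in the differences of Vmp1 and Sqstm1 was not tested.

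Of the 5 animals with both a tumor and a line, all 5 had more Vmp1 in the tumor, by 0.295 to 1.06 on the log2 scale. In the KO animals it was at 452 CPM in KO tumor 2 and 368 CPM in its line, and at 660.0 CPM in KO tumor 3 and 358 CPM in its line. In the WT animals it was at 517, 365 and 498 CPM in the tumors and 261, 259.7 and 238 CPM in their lines. Sqstm1 was lower in the tumor in 4 of 5, with log2 differences of -1.36 to 0.12, and higher in KO tumor 2, at 360.5 CPM against 331 CPM in its line. The neighbour Ptrh2 fell in KO tumors against KO lines, with a log2 fold change of -0.68 ± 0.15 (edgeR adjusted p = 0.00073), the opposite direction to Vmp1, and had -0.42 ± 0.18 in WT (adjusted p = 0.0605).

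**Figure D5:**
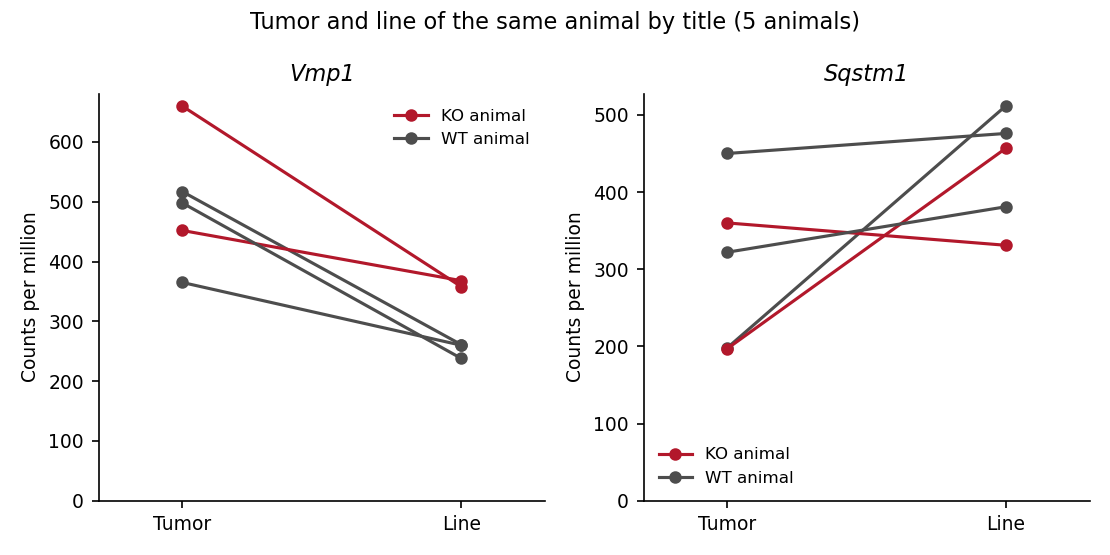
Counts-per-million values of Vmp1 (left) and Sqstm1 (right) in the tumor and the line of the same animal, with 1 connecting line per animal. Vmp1 is higher in the tumor in 5 of 5 animals and Sqstm1 is lower in 4 of 5.

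The other 7 genes had log2 fold changes of -0.32 (Atg7) to 0.42 (Tfeb) between KO tumors and KO lines, and of -0.23 (Atg7) to 0.28 (Tmem41b) between WT tumors and WT lines. Atg7 had an adjusted p of 0.0804 in KO, and passed without KO tumor 2 (log2 fold change -0.39, adjusted p = 0.0279), within a range of 0.0279 to 0.25 over its alternatives. In the 11 lists, 21 genes rose and 21 fell between KO tumors and KO lines, and 17 rose and 15 fell between WT tumors and WT lines, of 106 each, with medians of -0.08 and -0.06. Both counts are below the shares of all genes, which were 57.1% in KO (6384 higher and 4270 lower) and 46.5% in WT (5225 higher and 3453 lower). Mitf was at 10.6 CPM in KO tumors and 0.219 CPM in KO lines, and at 5.62 CPM in WT tumors and 0.641 CPM in WT lines. It did not pass the low-count filter in the lines alone and entered this comparison through the tumors. Its test between tumors and lines was therefore not read. Among the lipid transfer and membrane genes, Atg9b encodes a scramblase of the vesicles that seed the membrane. It rose by 2.26 in KO and 2.77 in WT on the log2 scale (adjusted p of 0.002 and 0.00124). Rptor, the mTORC1 scaffold, fell by 0.90 in KO and 0.68 in WT (adjusted p of 0.000136 and 0.00916). The protease gene Ctsd rose by 0.79 in KO and 1.48 in WT (adjusted p of 0.00376 and 8.15e-05).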

How the data were processed

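RNA of 12 tumors and 10 lines was sequenced as single-end reads of 75 bases from stranded mRNA libraries, per the labels' protocols. The deposited values are raw read counts per gene that the authors made on build mm10 with STAR, after trimming with Trim Galore. The submitters' processing notes, the source of these steps, also list bcl2fastq 1.9.0. The counting tool, its annotation and its strand setting are not given in the sources used here.

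Symbols and positions came from GENCODE vM21, and 53237 of 53342 genes had a symbol. Counts were tested with edgeR 4.0.16 (filterByExpr, TMM, robust quasi-likelihood, Benjamini-Hochberg over all genes, threshold 0.05), for lines and tumors apart, with all 22 libraries for the interaction and for tumors against lines. Lines had a common biological coefficient of variation of 0.422, and tumors one of 0.501. All 9 members passed the low-count filter. CPM in the text use TMM factors over all libraries, and levels per kilobase divide by the union of annotated exons. Correlations with Vmp1 used 100000 permutations within genotype and were adjusted over 16 relations. Fits were tested on simulated data. No 2 libraries agreed within sampling noise (smallest chi-square per degree of freedom 49.8). By title, each library of a group came from a separate animal, and no batch is given in the labels.

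The members and lists were chosen with earlier results of these data known. Genes outside the 9 were named by rule, as up to 3 per list with the smallest p in each KO comparison, the 5 closest to Vmp1 by r, and its neighbours on the chromosome. Alternatives were RLE scaling, no low-count filter, DESeq2 1.42.0, limma-voom 3.58.1 without and with the animal as a block (consensus correlation 0.287, from the 5 animals shared by title), all libraries in 1 fit, an acinar covariate, leaving out libraries, and a pseudocount of 0.1 for correlations.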

Additional observations from a re-analysis of the deposited data

Results flagged for a closer look

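Among 36 groups of 4 to 8 libraries, 1 for each of the 9 genes in each group, 2 held a library far from the others, where chance alone marks about 1 group in 20. Vmp1 was at 475 CPM in KO line 3, while the other 4 KO lines lay between 358 and 384 CPM. Without KO line 3 the log2 fold change of Vmp1 in lines was 0.59. Sqstm1 was at 360 CPM in KO tumor 2, while the other 7 KO tumors lay between 197 and 263 CPM.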

How the results depend on the processing

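Of 117 recomputed counts of called members or of correlations that passed, 110 stayed within 1.5 times the main count and 7 moved. DESeq2 called 1 member, Vmp1, in KO against WT lines, where edgeR called 0. Between WT tumors and WT lines, where edgeR called 2, RLE scaling and DESeq2 each called 1, and leaving out 1 library gave 1 to 2, Sqstm1 being the call lost (DESeq2 adjusted p = 0.0638). The cause of these moves was not tested. Over all genes, DESeq2 called 46 in KO lines, 883 in KO tumors and 67 for the interaction, where edgeR called 2, 2 and 0, and 1 edgeR fit of all 22 libraries called 5 in lines and 40 in tumors. With the animal as a replicate block, which pairs the 5 animals with a tumor and a line, limma-voom called 2 members in both comparisons of tumors with lines and 0 for the interaction, and no call of a member changed.

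Directions turned only for fold changes and correlations near 0 that passed no test, and the cause was not tested. Between KO tumors and KO lines, RLE scaling and DESeq2 gave 0.022 for Tmem41b and 0.032 for Becn1, and no low-count filter gave -0.044 for Atg5. In KO against WT tumors the acinar covariate gave 0.092 for Atg7, and leaving out KO tumors 4 and 8 and WT tumor 4 gave -0.024 for Map1lc3b. Correlations were also taken without the 2 libraries farthest from the median of Vmp1, with the genotype mean subtracted. There r was 0.158 for Atg5 in lines and -0.0103 for Atg7 in tumors. Leaving out 1 library at a time, KO against WT lines gave -0.041 to 0.072 for Tmem41b, -0.16 to 0.0068 for Becn1, -0.013 to 0.14 for Atg7 and -0.18 to 0.097 for Tfeb, and tumors gave -0.24 to 0.038 for Atg7. The interaction gave -0.072 to 0.18 for Map1lc3b, -0.030 to 0.18 for Atg5, -0.22 to 0.017 for Atg7 and -0.17 to 0.038 for Ulk1. KO tumors against KO lines gave -0.071 to 0.058 for Atg5, and WT tumors against WT lines -0.41 to 0.049 for Tfeb and -0.165 to 0.037 for Atg5.

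The floor given for Mir21a covers counting error only, and the antisense overlap of Map1lc3b limits what its counts can show.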
